A study of Mus musculus with 24 samples.

Results

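Nphs1, Podxl, Synpo, Ptpro, Wt1, Tcf21 and Cdkn1c, 7 genes known from podocytes, were followed in whole embryonic kidneys of mice that lacked transcription factors of intercalated cells. The genes were chosen by name, and each of the 7 symbols was found once among the 54393 genes of every count table. The study asked how Dmrt2, Hmx2 and Hmx3 take part in the development of intercalated cell subtypes of the collecting duct. Bulk RNA sequencing of polyA-selected RNA was done on kidneys at embryonic day 18.5. The groups were 3 Dmrt2 KO libraries with 3 Dmrt2 control libraries, 6 Hmx3; Hmx2 KO libraries with 6 control libraries, and 3 libraries labelled Dmrt2; Hmx3; Hmx2 KO (3XKO) with 3 control libraries. The controls were littermates, and the labels mark Hmx3; Hmx2 control replicates 1 to 3 as WT and give the other controls no genotype beyond control. The labels describe neither the alleles nor a Cre driver, and all groups shared the stage and the tissue. The labels do not tie libraries to embryos, so the p-values rest on library-to-library spread. Y-linked expression differed between libraries within every group but the Dmrt2 controls, so those libraries did not all share 1 source.

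Podocytes are the epithelial cells that wrap the glomerular capillaries with interdigitating foot processes. The slit diaphragm, a junction built on nephrin, spans the gap between foot processes and forms part of the filtration barrier. Podocytes arise from nephron progenitors through the renal vesicle and S-shaped body, and at late gestation mature glomeruli lie beside nephrons that are still forming. The collecting duct, where many but not all intercalated cells lie, descends from the ureteric bud and not from the nephron progenitors.

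In mm39 coordinates, Nphs1 lies on chromosome 7 (30157740 to 30186648, plus strand), Podxl on chromosome 6 (31496423 to 31540916, minus) and Synpo on chromosome 18 (60727045 to 60793214, minus). Ptpro lies on chromosome 6 (137229317 to 137440231, plus), Wt1 on chromosome 2 (104956874 to 105003961, plus), Tcf21 on chromosome 10 (22693180 to 22696073, minus) and Cdkn1c on chromosome 7 (143012076 to 143014787, minus). Cdkn1c is the member nearest to a targeted locus, 11.85 Mb from Hmx2. Reads that fall in exons of more than 1 gene were not assigned by the authors' counting, and strand was not used. Nphs1 shares 597 exonic bases (9.0% of its exon length) with the antisense gene Nphs1os and 183 bases (2.8%) with the pseudogene Rps12-ps4. Cdkn1c shares 625 bases (30.7%) with Gm44732 on the other strand. Levels of Nphs1 and Cdkn1c are therefore counted from part of their exons. Within 20 kb of the 7 genes lie 20 other genes. Of those tested, 0 of 11 in the Dmrt2 comparison, 0 of 9 in the Hmx3 Hmx2 comparison and 0 of 14 in the triple comparison passed adjusted p < 0.05 in edgeR's quasi-likelihood test. At an unadjusted p under 0.05 the counts were 1, 0 and 5, against 12.3%, 4.93% and 17.9% of all genes. DESeq2 called 0, 0 and 2, against 2.17%, 0.0262% and 5.04% of all genes.

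The 24 libraries held 52286824 to 127339273 assigned reads. In these bulk samples, fewer podocytes and less RNA per podocyte cannot be told apart. Dmrt2 itself averaged 2.00 ± 0.379 CPM (reads of a gene relative to the TMM-scaled library size) in Dmrt2 KO libraries and 13.7 ± 1.30 CPM in their controls (SD, n = 3 each). In the libraries labelled triple knockout, Dmrt2 averaged 18.5 ± 0.801 CPM, against 11.5 ± 0.752 CPM in their controls (SD, n = 3 each), so the Dmrt2 transcript was not lost there. Hmx2 was lost in the same libraries, with 0, 0.0212 and 0 CPM, against 2.44, 3.32 and 2.31 CPM in their controls. In the Dmrt2 line Hmx2 averaged 14.2 ± 0.337 CPM in Dmrt2 KO libraries and 4.07 ± 0.841 CPM in controls (SD, n = 3 each). Hmx2 averaged 0.0224 ± 0.0260 CPM in Hmx3; Hmx2 KO libraries and 1.93 ± 0.297 CPM in their controls (SD, n = 6 each). Genes of the Y chromosome were expressed in 1 of 3 Dmrt2 KO libraries and 3 of 3 of their controls, in 2 of 6 Hmx3; Hmx2 KO libraries and 4 of 6 controls, while in the triple line 2 of 3 knockout-labelled libraries and 2 of 3 controls expressed them. Summed CPM of 7 adrenal genes stayed between 6.18 and 8.61 in all libraries. All 7 genes had at least 3392 reads in each library. A level in whole kidney does not assign these reads to podocytes, and Wt1 and Tcf21 are also known from progenitor and stromal cells.

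Promoter sequences were available for 3 of the 7 genes, Nphs1, Ptpro and Tcf21, and all 3 are shown for that reason. Nphs1 and Ptpro varied together over the libraries and Tcf21 did not vary with them, as described further on. A relation between promoter sequence and this variation was not tested. Each run gives 250 bases before and 50 bases after the RefSeq start in GRCm38.p6, read 5′ to 3′ on the gene's strand, with CG dinucleotides in capitals.
Nphs1 (chr7:30459808-30460107, plus strand): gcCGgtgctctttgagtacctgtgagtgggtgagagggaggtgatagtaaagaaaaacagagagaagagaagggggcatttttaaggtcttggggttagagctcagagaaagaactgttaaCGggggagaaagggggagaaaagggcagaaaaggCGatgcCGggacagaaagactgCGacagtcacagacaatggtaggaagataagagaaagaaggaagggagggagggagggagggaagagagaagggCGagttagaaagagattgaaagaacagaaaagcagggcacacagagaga
Ptpro (chr6:137252049-137252348, plus strand): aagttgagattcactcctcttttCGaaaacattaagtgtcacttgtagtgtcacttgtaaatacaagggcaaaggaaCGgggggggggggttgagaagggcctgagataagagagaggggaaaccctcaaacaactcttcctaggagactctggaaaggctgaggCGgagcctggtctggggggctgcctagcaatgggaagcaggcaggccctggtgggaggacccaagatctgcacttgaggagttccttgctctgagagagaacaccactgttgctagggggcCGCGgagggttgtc
Tcf21 (chr10:22820094-22820393, minus strand): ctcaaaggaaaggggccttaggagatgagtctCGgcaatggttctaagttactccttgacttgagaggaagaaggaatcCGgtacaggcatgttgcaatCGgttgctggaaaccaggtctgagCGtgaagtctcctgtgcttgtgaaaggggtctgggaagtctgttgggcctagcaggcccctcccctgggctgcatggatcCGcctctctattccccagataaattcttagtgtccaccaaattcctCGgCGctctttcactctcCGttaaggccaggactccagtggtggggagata

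The Nphs1 promoter held 6 CG dinucleotides, that of Ptpro 5 and that of Tcf21 8, against a median of 7 over 32851 promoters. Their GC contents were 49.7, 54.7 and 53.3%, against a median of 52.7%. On both strands 4 motifs were searched: the E-box CAGCTG, the zinc finger site GCGTGGGNG of the Wt1 and Egr kind, the homeobox site TAATTA and the forkhead site GTAAACA. None of these letters occurs in the 3 windows. Of all promoters, 16.3%, 1.9%, 5.3% and 3.6% hold them, in that order of motifs.

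Per kilobase of exon, the 7 genes spanned a wide range of levels, and their order was almost the same in every group. Cdkn1c, which encodes the cyclin-dependent kinase inhibitor p57 of postmitotic podocytes, was highest, with 198 ± 39.8 CPM per kb over the 24 libraries (SD), rank 154 of the 18782 genes tested in all 3 comparisons. Podxl, the gene of the sialoprotein podocalyxin that coats the podocyte surface, followed with 127 ± 10.01 CPM per kb. Tcf21, a basic helix-loop-helix factor of podocytes and of stromal progenitors, had 74.9 ± 8.77 CPM per kb. Wt1, a zinc finger factor of podocytes that nephron progenitors also express, had 34.7 ± 2.62 CPM per kb. Synpo, encoding the actin-associated protein synaptopodin, had 20.1 ± 1.81 CPM per kb. Ptpro, encoding a receptor tyrosine phosphatase of the podocyte apical membrane also known as GLEPP1, had 12.6 ± 1.55 CPM per kb. Nphs1, encoding nephrin, was lowest with 10.3 ± 0.690 CPM per kb, which is still above 70.7% of the tested genes. Neighbours in this order did not overlap within any group, except in Dmrt2 controls, where Nphs1 at 9.80 and Ptpro at 9.64 CPM per kb overlapped and changed places. The order was the same in the 5 other groups. The order of Nphs1 and Ptpro depends on the exon length used. Per kilobase of exon that no other gene shares, Nphs1 averaged 11.6 ± 0.782 CPM per kb over the 24 libraries (SD), and it overlapped Ptpro in every group of the Dmrt2 and Hmx3 Hmx2 lines. In Dmrt2 KO libraries Nphs1 then ran from 10.96 to 12.6 and Ptpro from 11.8 to 11.9 CPM per kb. The other neighbours in the order did not overlap with that length either. Cdkn1c averaged 285 ± 57.4 CPM per kb with that length over the 24 libraries (SD), so 198 CPM per kb is the lower of its 2 values. The rank of 154 was not recomputed.

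The highest library exceeded the lowest by 1.31 times for Nphs1, 1.34 times for Wt1, 1.47 times for Synpo, 1.49 times for Podxl, 1.52 times for Tcf21, 1.88 times for Ptpro and 1.98 times for Cdkn1c. Scaling factors were set within each line, so levels of different lines are given side by side without a test. Cdkn1c ran from 481 to 581 CPM in the Dmrt2 line, from 316.2 to 420.5 CPM in the Hmx3 Hmx2 line and from 293 to 372 CPM in the triple line. The Dmrt2 line thus lay above every library of both other lines for Cdkn1c. Ptpro ran from 54.3 to 79.9 CPM in the Dmrt2 line, against 75.0 to 102 CPM in the Hmx3 Hmx2 line and 80.0 to 91.8 CPM in the triple line. Wt1 and Synpo were also high in the Dmrt2 line, with medians of 236 and 213 CPM, against 204 and 185 CPM in the Hmx3 Hmx2 line and 218 and 188 CPM in the triple line. Line, deposited table and litters cannot be told apart in these values.

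**Figure D1:**
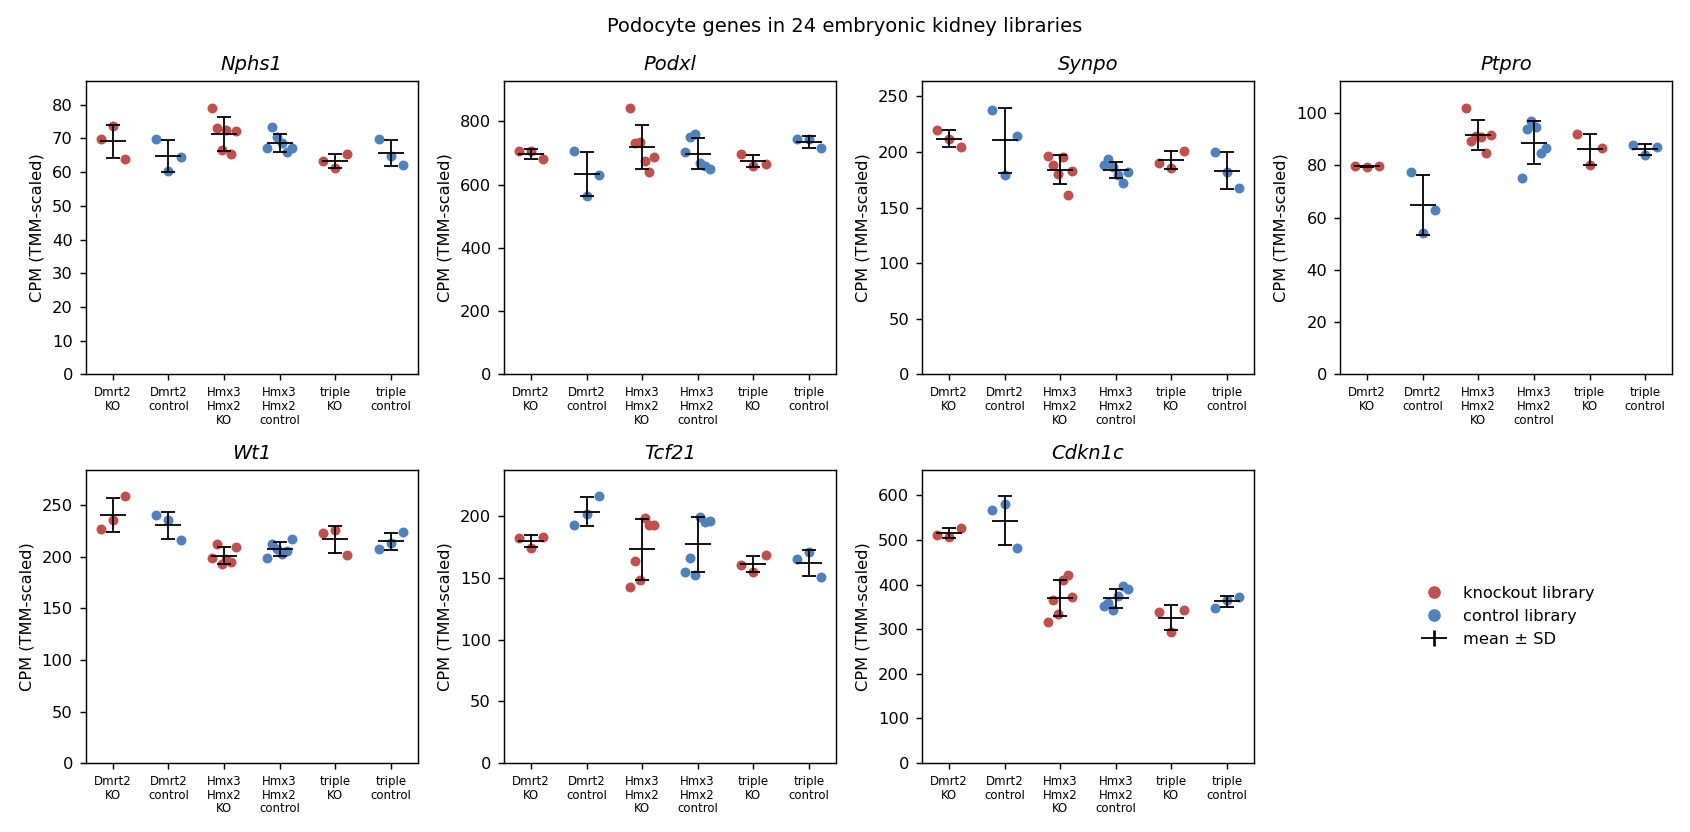
TMM-scaled CPM (y axes, from 0) of the 7 podocyte genes in 24 libraries, with knockout libraries in red left of their controls in blue for each line on the x axes; points are libraries and black bars the mean ± SD. Ptpro in Dmrt2 KO libraries lies between 79.2 and 79.9 CPM, above the 3 controls, and Cdkn1c is highest in the Dmrt2 line.

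In Dmrt2 KO kidneys none of the 7 genes passed the test. Ptpro had the highest positive and Tcf21 the lowest negative change, and both had groups that did not overlap. edgeR's quasi-likelihood test with Benjamini-Hochberg adjustment over 19807 genes called 0 of 7 members, where 0.444% of all genes were called (0.187% higher and 0.257% lower). At an unadjusted p under 0.05 there were 2 of 7 members, against 12.3% of all genes, and DESeq2 called 0 of 7. Groups did not overlap for 2 of 7 members, against 17.8% of all genes.

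Nphs1 had 69.8, 73.7 and 64.0 CPM in Dmrt2 KO libraries, against 69.8, 60.4 and 64.4 CPM in controls. The groups overlapped, with a log2 fold change of 0.09 ± 0.07 (SE; 95% interval −0.06 to 0.24; adjusted p = 0.639). Podxl had 708, 705 and 680 CPM in Dmrt2 KO libraries, against 706, 565 and 629 CPM in controls. Control replicate 1 reached the level of the knockouts, and the log2 fold change was 0.14 ± 0.07 (SE; adjusted p = 0.485). Synpo had 220, 212 and 205 CPM in Dmrt2 KO libraries, against 238, 179 and 214 CPM in controls. The knockouts lay inside the range of the controls, and the log2 fold change was 0.01 ± 0.09 (SE; adjusted p = 0.974). Ptpro had 79.7, 79.2 and 79.9 CPM in Dmrt2 KO libraries, against 77.3, 54.3 and 62.9 CPM in controls. All 3 knockouts were above all 3 controls, and the knockouts lay much closer together (SD 0.339 CPM in knockouts, 11.6 CPM in controls). The log2 fold change of Ptpro was 0.30 ± 0.11 (SE; 95% interval 0.04 to 0.55; unadjusted p = 0.0297, adjusted p = 0.342). Without control replicate 1 it was 0.44 with an adjusted p of 0.0111 in edgeR's test, and with no filter on low counts 0.30 with an adjusted p of 5.86e-04, a setting under which 676 genes were called in place of 88. Without control replicate 2, the lowest library, it was 0.18 with an adjusted p of 0.478.

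Among the transcription factors and the cell cycle inhibitor, Tcf21 and Cdkn1c had negative and Wt1 a positive log2 fold change in the Dmrt2 comparison. Wt1 had 227, 235 and 259 CPM in Dmrt2 KO libraries, against 240, 236 and 216 CPM in controls. The groups overlapped, with a log2 fold change of 0.06 ± 0.07 (SE; adjusted p = 0.771). Tcf21 had 182, 174 and 183 CPM in Dmrt2 KO libraries, against 193, 202 and 216 CPM in controls. All 3 knockouts lay under all 3 controls, with a log2 fold change of −0.18 ± 0.06 (SE; 95% interval −0.31 to −0.05; unadjusted p = 0.00969, adjusted p = 0.237). Cdkn1c had 511, 506 and 527 CPM in Dmrt2 KO libraries, against 567, 581 and 481 CPM in controls. Control replicate 3 lay below the knockouts and the other two controls above them, with a log2 fold change of −0.08 ± 0.07 (SE; adjusted p = 0.724). Control replicate 2 was the lowest of the 6 libraries for Nphs1, Podxl, Synpo and Ptpro. Y-linked expression was absent in 2 of the 3 knockouts and present in all 3 controls. With a Y-linked term the log2 fold change of Ptpro was 0.30. That estimate rests on Dmrt2 KO replicate 1 against the 3 controls, since the other knockouts lacked Y-linked expression. A single knockout library cannot show whether the change is independent of Y-linked expression.

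In Hmx3; Hmx2 KO kidneys the 7 genes were close to their controls, with log2 fold changes between −0.04 and 0.06. edgeR called 0 of 7 members over 19050 genes, where 0.021% of all genes were called (0.00525% higher and 0.0157% lower), and DESeq2 called 0 of 7. At an unadjusted p under 0.05 there were 0 of 7, against 4.93% of all genes, and 0 of 7 had groups that did not overlap, against 0.0787%. The standard errors ran from 0.03 to 0.06 with 6 libraries a group.

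Nphs1 ranged from 65.3 to 79.1 CPM in Hmx3; Hmx2 KO libraries (median 72.3), against 66.1 to 73.3 CPM in controls (median 67.8), a log2 fold change of 0.06 ± 0.04 (SE; 95% interval −0.03 to 0.14; adjusted p = 0.946). Podxl ranged from 640 to 843 CPM in Hmx3; Hmx2 KO libraries (median 709.8), against 648 to 760.4 CPM in controls (median 685), a log2 fold change of 0.04 ± 0.04 (SE; adjusted p = 0.962). Synpo ranged from 161 to 196 CPM in Hmx3; Hmx2 KO libraries (median 186), against 173 to 193 CPM in controls (median 184). Ptpro ranged from 84.8 to 102 CPM in Hmx3; Hmx2 KO libraries (median 91.05), against 75.0 to 96.9 CPM in controls (median 90.3). These 4 genes of the slit diaphragm, surface and cytoskeleton overlapped between groups in both directions. The 95% intervals ran from −0.08 to 0.09 for Synpo and from −0.08 to 0.18 for Ptpro on the log2 scale.

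Wt1 ranged from 193 to 212.5 CPM in Hmx3; Hmx2 KO libraries (median 199), against 199 to 218 CPM in controls (median 207), a log2 fold change of −0.04 ± 0.03 (SE; adjusted p = 0.948). Tcf21 ranged from 143 to 198 CPM in Hmx3; Hmx2 KO libraries (median 178), against 152 to 199 CPM in controls (median 181), a log2 fold change of −0.04 ± 0.03 (SE; adjusted p = 0.962). Cdkn1c ranged from 316.2 to 420.5 CPM in Hmx3; Hmx2 KO libraries (median 368), against 342 to 396 CPM in controls (median 367), with a 95% interval from −0.09 to 0.09 on the log2 scale. Cdkn1c lies on the same chromosome as Hmx2 and Hmx3, and its level did not pass the test in either comparison of libraries that lost Hmx2.

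In the libraries labelled triple knockout, Podxl and Cdkn1c were the members with groups that did not overlap, both lower than in controls, and neither passed the test. edgeR called 0 of 7 members over 21537 genes, where 1.03% of all genes were called (0.585% higher and 0.446% lower), and DESeq2 called 0 of 7. At an unadjusted p under 0.05 there were 2 of 7 members, against 17.9% of all genes, and groups did not overlap for 2 of 7, against 24.3%. Podxl had 696, 660 and 666 CPM in libraries labelled triple knockout, against 745, 746 and 714 CPM in controls. All 3 lay under all 3 controls, with a log2 fold change of −0.12 ± 0.05 (SE; 95% interval −0.24 to −0.01; unadjusted p = 0.0306, adjusted p = 0.235). Cdkn1c had 339, 293 and 344 CPM in libraries labelled triple knockout, against 348, 366 and 372 CPM in controls. All 3 again lay under the controls, with a log2 fold change of −0.15 ± 0.07 (SE; 95% interval −0.30 to −0.01; unadjusted p = 0.0377, adjusted p = 0.252).

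The 5 other genes overlapped between the groups. Nphs1 had 63.4, 61.3 and 65.5 CPM in libraries labelled triple knockout, against 69.8, 64.8 and 62.1 CPM in controls, a log2 fold change of −0.05 ± 0.06 (SE; adjusted p = 0.687). Synpo had 190, 186 and 201 CPM in libraries labelled triple knockout, against 200, 182 and 167 CPM in controls, a log2 fold change of 0.07 ± 0.07 (SE; adjusted p = 0.607). Ptpro, which lay above its controls in Dmrt2 KO kidneys, averaged 86.2 ± 5.94 CPM in libraries labelled triple knockout and 86.2 ± 2.07 CPM in controls (SD, n = 3 each), with a 95% interval from −0.12 to 0.12 on the log2 scale. Wt1 averaged 217 ± 13.1 CPM in libraries labelled triple knockout and 215 ± 8.27 CPM in controls (SD, n = 3 each). Tcf21 averaged 161 ± 6.64 CPM in libraries labelled triple knockout and 162 ± 10.6 CPM in controls (SD, n = 3 each).

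**Figure D2:**
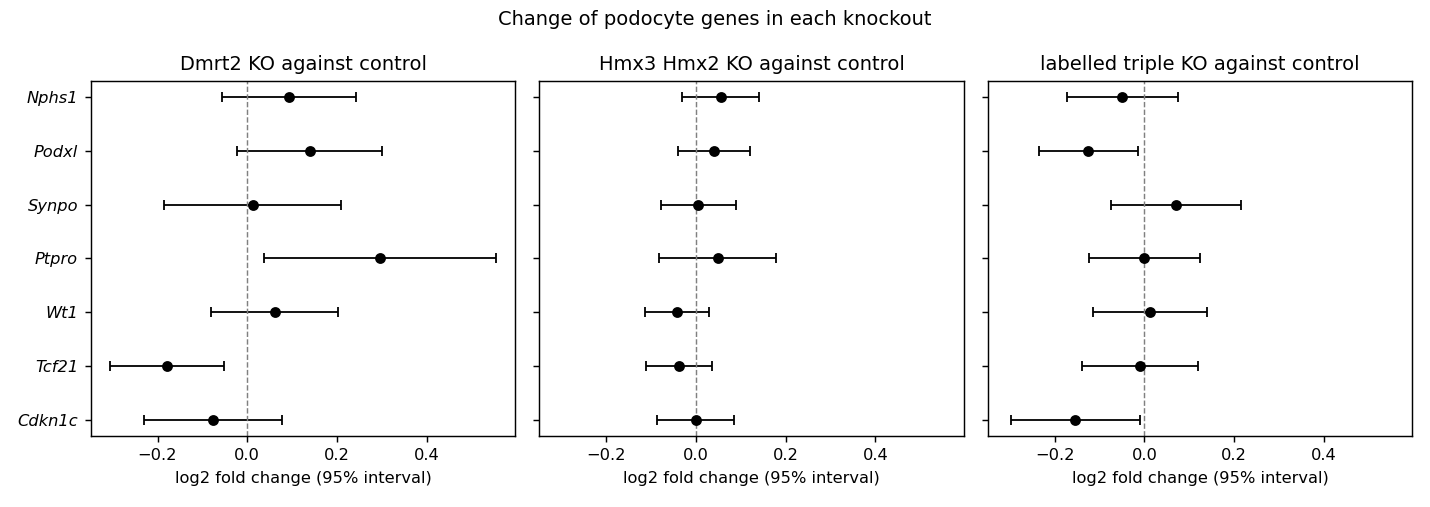
Log2 fold change (x axes) of each podocyte gene (rows) in the Dmrt2, Hmx3 Hmx2 and triple comparisons, knockout over control, as points with 95% intervals from edgeR's quasi-likelihood fit. The intervals reach from −0.31 for Tcf21 to 0.55 for Ptpro, both in the Dmrt2 comparison, and lie between −0.11 and 0.18 in the Hmx3 Hmx2 comparison.

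Over the 21 tests, 0 were called and 4 had an unadjusted p under 0.05. The 95% intervals of all 21 lay between −0.31 and 0.55 on the log2 scale, or 0.809-fold and 1.47-fold. The median absolute log2 fold change of the 7 genes was 0.09 in the Dmrt2 comparison, 0.04 in the Hmx3 Hmx2 comparison and 0.05 in the triple comparison, against 0.11, 0.05 and 0.13 over all genes tested. These medians are not matched for abundance or precision. The median standard error over all genes was 0.10, 0.07 and 0.11 in that order. The standard errors of the 7 genes ran from 0.06 to 0.11, 0.03 to 0.06 and 0.05 to 0.07. One fit over 24 libraries with a term for the deposited table tested whether the effects differ. Of the 7 members it called 0 for the triple effect minus the Dmrt2 effect (0.394% of all 22101 genes called; 3 of 7 at an unadjusted p under 0.05, against 11.4% of all genes), 0 for triple minus Hmx3 Hmx2 (0.968%; 1 of 7, against 13.3%) and 0 for Dmrt2 minus Hmx3 Hmx2 (0.154%; 1 of 7, against 7.67%). The lowest adjusted p, 0.188, belonged to Podxl, whose triple effect minus its Dmrt2 effect was −0.27 ± 0.08 on the log2 scale (SE; 95% interval −0.44 to −0.10; unadjusted p = 0.00373).

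Wider sets of podocyte genes gave 1 call each in the Dmrt2 and triple comparisons in edgeR's test, neither in the slit diaphragm set. Of 71 genes in 4 sets, 70 were in the tables and tested. The shares of all genes to set beside these counts are those given above for edgeR, with 12.3%, 4.93% and 17.9% at an unadjusted p under 0.05 in the Dmrt2, Hmx3 Hmx2 and triple comparisons. DESeq2 called 2.17%, 0.0262% and 5.04% of all genes in that order. In the Dmrt2 comparison 0 rose and 1 fell in edgeR's test (15 at an unadjusted p under 0.05), and DESeq2 called 1 higher and 3 lower. In the Hmx3 Hmx2 comparison both tools called 0, with 5 at an unadjusted p under 0.05 in each. In the triple comparison 0 rose and 1 fell in edgeR's test (10 at an unadjusted p under 0.05), and DESeq2 called 1 higher and 3 lower.

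Tdrd5, a tudor domain gene best known from germ cells, fell in Dmrt2 KO kidneys, with 8.85, 8.60 and 7.92 CPM, against 11.7, 11.8 and 14.9 CPM in controls. All 3 knockouts lay under the controls, with a log2 fold change of −0.60 ± 0.11 (SE; adjusted p = 0.0469). The call was lost with the Y-linked term (log2 fold change −0.53, adjusted p = 0.750), with a replicate block (−0.59, adjusted p = 0.0834) and without any of 5 of the 6 libraries (adjusted p 0.0529 to 0.243). Tdrd5 also differed between the deposited tables of the Hmx3 Hmx2 line, in knockouts and controls alike. It ran from 12.5 to 17.9 CPM in replicates 1 to 3 of both groups. In replicates 4 to 6 of both groups it ran from 8.41 to 10.6 CPM, without overlap. The part of such variation between libraries in the Dmrt2 comparison was not tested. Angpt1, encoding the Tie2 ligand angiopoietin-1, fell in the libraries labelled triple knockout, with 21.8, 22.2 and 21.5 CPM, against 32.03, 34.9 and 28.9 CPM in controls. The log2 fold change was −0.55 ± 0.07 (SE; adjusted p = 0.00772), and the call was lost without knockout replicate 3 (adjusted p = 0.0740).

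By set, 0 of 17 slit diaphragm genes were called in each comparison by edgeR, with medians of 0.11, 0.04 and −0.05 in the Dmrt2, Hmx3 Hmx2 and triple comparisons on the log2 scale. DESeq2 called 1 of the 17 lower in the Dmrt2 comparison and 1, Fat1, higher in the triple comparison, and 6, 0 and 2 of the 17 had an unadjusted p under 0.05 in edgeR. The most abundant of them, Fat1, encoding a giant cadherin, averaged 412 ± 33.0 CPM in libraries labelled triple knockout and 314.7 ± 59.1 CPM in controls (SD, n = 3 each; adjusted p = 0.230 in edgeR). Tjp1, encoding the junction protein ZO-1, averaged 324 ± 23.97 CPM in Dmrt2 KO libraries and 281 ± 7.78 CPM in controls (SD, n = 3 each; adjusted p = 0.202 in edgeR). Of 17 genes of the podocyte cytoskeleton, led by Actn4 (actinin), 0 were called by edgeR in each comparison, with 1, 1 and 3 at an unadjusted p under 0.05. DESeq2 called 1 of them, Arhgap24, lower in the triple comparison. Of 10 podocyte transcription factors, with Tead1 and Foxc2 among the most abundant, 0 were called by edgeR in each comparison, with 2, 2 and 1 at an unadjusted p under 0.05, and DESeq2 called Foxl1 lower in the Dmrt2 comparison. Of 26 other podocyte genes, many of them for surface and secreted proteins, edgeR called Tdrd5 and Angpt1 as given, with 6, 2 and 4 at an unadjusted p under 0.05, and DESeq2 added Dach1 (higher, Dmrt2) and Sema3g (lower, triple). Tdrd5 and Dach1, a nuclear factor, are neither surface nor secreted proteins, and Sema3g and Angpt1 encode secreted ones.

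Around the podocyte, Lama5, encoding the laminin alpha 5 chain of the glomerular basement membrane, rose in the libraries labelled triple knockout, to 407 ± 11.1 CPM, against 308 ± 26.5 CPM in controls (SD, n = 3 each; log2 fold change 0.40 ± 0.07 SE, adjusted p = 0.0211 in edgeR). The call was lost in the fit of 24 libraries (log2 fold change 0.40, adjusted p = 0.147), with a replicate block (0.41, adjusted p = 0.0854) and without knockout replicate 2, knockout replicate 3 or control replicate 2 (0.33 to 0.41, adjusted p 0.0577 to 0.0911). Lama5 ran from 298 to 487 CPM in Hmx3; Hmx2 KO libraries and from 318 to 446 CPM in their controls. A level in whole kidney does not assign its reads to the glomerulus. edgeR called none of the other 12 genes of the glomerular basement membrane in the triple comparison and none of the 13 in the other comparisons. DESeq2 also called Hspg2 in the triple comparison, and Lamb1 and Nid2 in the Dmrt2 comparison. Plat, the tissue plasminogen activator gene of endothelium, fell to 104 ± 2.33 CPM in these libraries, against 126 ± 4.69 CPM in controls (SD, n = 3 each; log2 fold change −0.27 ± 0.05 SE, adjusted p = 0.0275 in edgeR). That call was lost with a replicate block (log2 fold change −0.27, adjusted p = 0.110) and without any of 4 of the 6 libraries (−0.29 to −0.25, adjusted p 0.0705 to 0.123). No other tested gene of the 12 endothelial, 11 mesangial and renin cell, 7 parietal epithelial, 10 nephron progenitor, 11 stromal, 7 tubule and 7 adrenal genes, or of the 10 imprinted genes around Cdkn1c, passed edgeR's test. Of the imprinted genes, 2, 1 and 4 had an unadjusted p under 0.05 there in the Dmrt2, Hmx3 Hmx2 and triple comparisons. The shares of all genes were 12.3%, 4.93% and 17.9%. Among the imprinted genes DESeq2 called only Igf2, lower in the triple comparison. Only 4 of the adrenal genes passed the filter on low counts in each comparison, and 9 of the progenitor genes in the Hmx3 Hmx2 comparison. Over these sets and the membrane genes, edgeR called 0 of 85 genes in the Dmrt2 comparison, 0 of 84 in the Hmx3 Hmx2 comparison and 2 of 85 in the triple comparison, against 0.444%, 0.021% and 1.03% of all genes. DESeq2 called 4, 0 and 11 of them, Lama5 and Plat included, against 2.17%, 0.0262% and 5.04% of all genes.

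The 7 genes did not all vary together from library to library. Levels were taken as log2 CPM with the mean of each group and table removed, so that only variation between libraries of the same group remained, and all 21 pairs were tested over 24 libraries by permutation within groups. Of these, 6 pairs had a Benjamini-Hochberg adjusted p under 0.05 by Pearson's r and 5 by Spearman's rho. The 6 pairs were those among Nphs1, Podxl, Synpo and Ptpro, the genes of the slit diaphragm, surface and cytoskeleton. Pairs with Wt1, Tcf21 or Cdkn1c had r between −0.35 and 0.19 and did not pass.

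Podxl and Ptpro gave r = 0.868 (permutation p = 4e-04, adjusted p = 0.0042) and rho = 0.847 (p = 4.5e-04), and r = 0.757 without the 2 libraries farthest from the median of Podxl. Nphs1 and Synpo gave r = 0.789 (permutation p = 5e-05, adjusted p = 0.00105) and rho = 0.861 (p = 4e-05), and 0.819 without the farthest 2. Nphs1 and Podxl gave r = 0.759 (permutation p = 8.6e-04, adjusted p = 0.00602) and rho = 0.787 (p = 3.9e-04), and 0.709 without the farthest 2. Podxl and Synpo gave r = 0.713 (permutation p = 0.00609, adjusted p = 0.0256) and rho = 0.63 (p = 0.0106), and 0.467 without the farthest 2. Nphs1 and Ptpro gave r = 0.635 (permutation p = 0.0024, adjusted p = 0.0126) and rho = 0.69 (p = 0.00218), and 0.632 without the farthest 2. Synpo and Ptpro gave r = 0.606 (permutation p = 0.0117, adjusted p = 0.0408) and rho = 0.549 (p = 0.0243, adjusted p = 0.085). That last relation rested on 2 libraries, since r was 0.296 without them. All 6 pairs had a positive r in each of the 3 lines, the lowest being 0.25 for Synpo and Ptpro in the triple line.

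**Figure D3:**
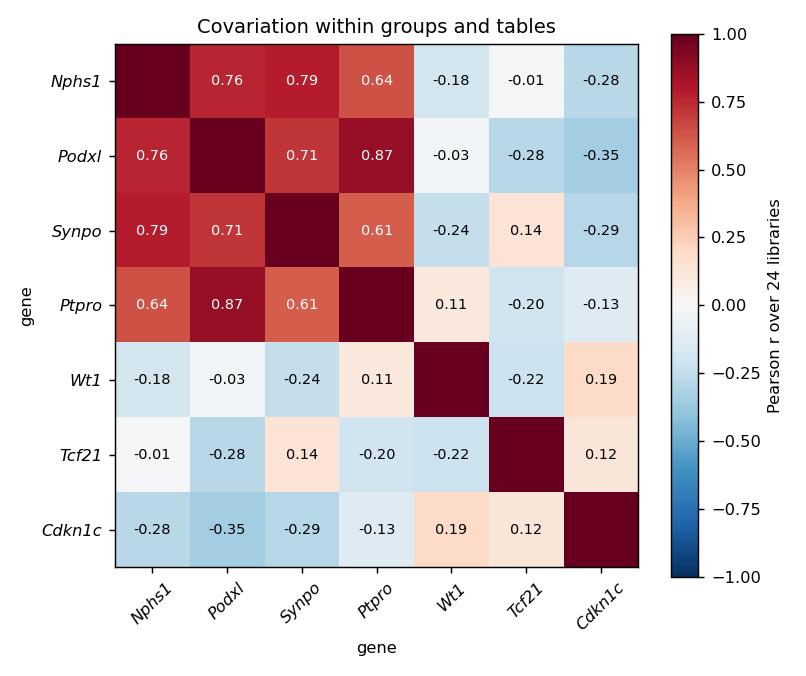
Pearson r (colour and printed values) between the 7 podocyte genes on both axes over 24 libraries, after the mean log2 CPM of each group and table was removed. Nphs1, Podxl, Synpo and Ptpro form the block of values from 0.61 to 0.87, and pairs with Wt1, Tcf21 or Cdkn1c lie between −0.35 and 0.19.

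The mean of those 4 genes, a grouping made after the pairs were seen and therefore given with no test, ran against the nephron progenitor genes. Over 24 libraries its r with the mean of 9 progenitor genes, among them Six2 and Cited1, was −0.773 (rho −0.757), and −0.884, −0.651 and −0.792 in the Dmrt2, Hmx3 Hmx2 and triple lines. The extremes were Dmrt2 control replicate 1, with the 4 genes 0.17 above and the progenitor genes 0.26 below their group mean in log2 CPM, and Dmrt2 control replicate 2, with the 4 genes 0.17 below and the progenitor genes 0.21 above. Without these 2 libraries r was −0.647. The same mean had r = 0.843 with those 26 other podocyte genes, 0.727 with mesangial and renin cell genes, 0.585 with tubule genes and 0.545 with glomerular endothelial genes. Without the same 2 libraries these were 0.728, 0.532, 0.661 and 0.559. The most abundant of those 26 genes were Npnt, Dpp4 and Enpep in every comparison. Levels in whole kidney do not assign their reads to podocytes, so the r with that list is not particular to podocytes. With the podocyte transcription factor set the mean of the 4 genes had r = −0.383 (−0.89, 0.053 and 0.165 in the Dmrt2, Hmx3 Hmx2 and triple lines). With the slit diaphragm set r was 0.603 (0.59, 0.826 and −0.059 by line), and with the cytoskeleton set 0.468 (0.411, 0.458 and 0.755). The podocyte sets thus did not all run the same way. Wt1 alone had r = 0.483 with the progenitor genes, and Tcf21 0.159. The wide spread of Ptpro and Podxl in Dmrt2 controls thus coincided with an opposite spread of progenitor genes, and the part of either in the other was not tested.

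**Figure D4:**
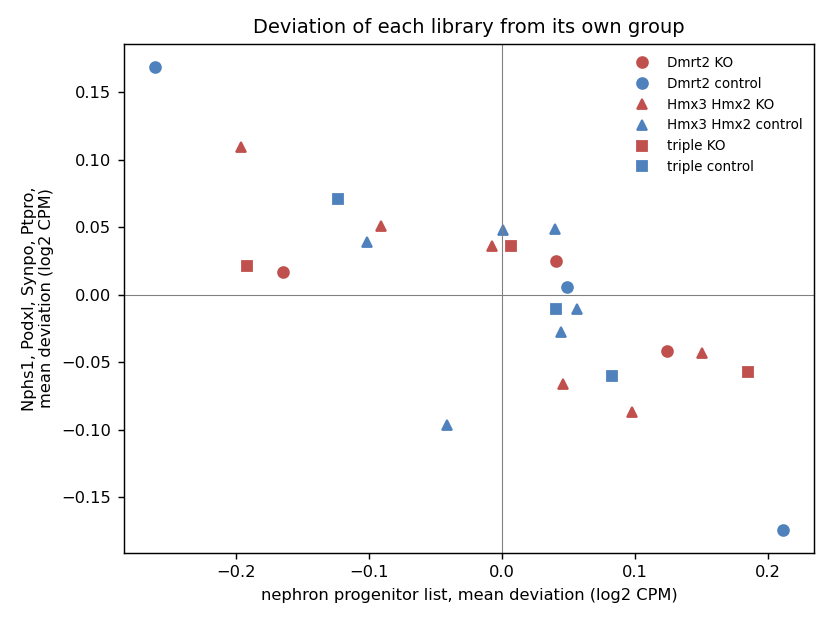
Mean deviation of Nphs1, Podxl, Synpo and Ptpro from their group mean (y axis, log2 CPM) against that of 9 nephron progenitor genes (x axis, log2 CPM) in 24 libraries; red points are knockouts, blue points controls, and shapes mark the line. Points run from upper left to lower right (r = −0.773), and 2 Dmrt2 controls lie at the ends.

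The Hmx3 Hmx2 line came in 2 deposited tables, replicates 1 to 3 and replicates 4 to 6, and 3 of the 7 genes differed between them without overlap, against 17.3% of all genes. Tcf21 averaged 196 ± 2.698 CPM in replicates 4 to 6 and 155 ± 8.96 CPM in replicates 1 to 3 (SD, n = 6 each, both genotypes). Cdkn1c averaged 394 ± 19.3 CPM in replicates 4 to 6 and 345 ± 17.8 CPM in replicates 1 to 3. Podxl went the other way, with 663 ± 17.4 CPM in replicates 4 to 6 and 754 ± 47.8 CPM in replicates 1 to 3. Each table held 3 libraries of both groups and the fit had a term for the table. Within replicates 1 to 3 alone and within replicates 4 to 6 alone, 0 of 7 genes were called between knockouts and controls.

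The 10 genes whose levels were most alike those of the 7 podocyte genes, by the mean of 7 Pearson r over 24 libraries among genes of at least 1 CPM, included Fam163a, Lrrfip1, Gm13855, Tor1aip2, Sim2, Dpp4, Cryzl2, Nit1 and Niban1. Their mean r ran from 0.393 to 0.431. The 10 were picked by this value, so lying above the median of −0.01 over 14950 genes was fixed in advance. At the other end the lowest mean r of any gene was −0.436. Fam163a, with the highest mean r, averaged only 1.7 CPM, near the limit of 1 CPM. The lowest r of each of the 10 with a member lay between −0.215 and 0.123. Of the 10, 6 lie on chromosome 1, which holds 5.78% of the genes compared. Niban1, Tor1aip2, Fam163a and Cryzl2 lie between 151446937 and 157320208 there (mm39), a stretch that also holds Tdrd5 (156082866 to 156131234). Tdrd5 itself ran the other way, with a mean r of −0.215 with the 7 genes, the lowest of the 26 other podocyte genes. The part of this position in the likeness of Niban1, Tor1aip2, Fam163a and Cryzl2 was not tested. Dpp4 was the only one of the 10 in the podocyte sets, and its level in whole kidney does not assign its reads to podocytes. Among single members, the 3 partners of each of Nphs1, Podxl, Synpo and Ptpro lay above the 95th percentile of all genes in r, and no member did so for Wt1, Tcf21 or Cdkn1c.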

How the data were processed

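Raw read counts per gene were deposited by the authors in 4 tables, 1 each for the Dmrt2 and triple lines and 2 for the Hmx3 Hmx2 line. Per the file headers, featureCounts 2.0.3 counted exons by gene name in paired-end mode with GENCODE vM29, without strand and without reads that overlap several genes. The submitters' processing notes name fastp 0.20.1, STAR 2.7.0e, featureCounts 2.0.1 and mm39. Both reads of a pair appear to be counted, since 87.9 to 94.1% of counts from 1 to 19 were even, so counting intervals would be too narrow and none are given. Another 2 deposited columns matched no sample and were not used.

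Counts were tested with edgeR 4.0.16 (R 4.3.3): TMM scaling, filterByExpr (minimum count 10, total 15), robust quasi-likelihood fit, Benjamini-Hochberg adjustment over all genes tested and a threshold of 0.05. Each line had its own fit, with a term for the table in the Hmx3 Hmx2 line; 1 fit of 24 libraries tested differences between effects. The standard error is the log2 fold change over the square root of F. DESeq2 1.42.0 was an alternative. Correlations used log2 CPM (prior count 2) with 100000 permutations within group and table. Of the 24 pairs of libraries of 1 group within 1 deposited table, 0 agreed within sampling noise. Pairs between the 2 tables of the Hmx3 Hmx2 line were not compared. Same-numbered knockouts and controls were not treated as pairs.

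The members and gene lists were chosen with earlier results of these data known. The text names the 7 members, in each other list the called genes or else the most abundant, the 10 genes most alike and neighbours within 20 kb. Genes called by DESeq2 alone, the 4-gene grouping, the table split and the CG capitals were named after values were seen. The order of levels was recomputed per kilobase of unshared exon after values were seen. Promoters are from RefSeq (GRCm38.p6). Some genes that these rules name are not reported here.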

Additional observations from a re-analysis of the deposited data

How the results depend on the processing

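Across the alternatives, 300 recomputed log2 fold changes of the 7 genes kept their direction and their side of the threshold, 34 changed sign and 2 newly passed. Ptpro passed in the Dmrt2 comparison under 2 settings, no filter on low counts (0.2968) and without control replicate 1 (0.4393), so that the count of members called was 1 there and ranged from 0 to 1 when libraries were left out. It was 0 under every other setting run in each comparison. No value that changed sign passed in either fit. In the Dmrt2 comparison these were Wt1 with the Y-linked term (−0.0207) and Synpo, from −0.0913 to 0.1067 with 1 library left out. In the Hmx3 Hmx2 comparison they were Cdkn1c with RLE factors or DESeq2 (0.0023), in the fit of 24 libraries (0.0028), with no table term (0.0030), with replicates 4 to 6 only (0.0525) and, with 1 library left out, from −0.0205 to 0.0257; Synpo with library totals (−0.0001), with no filter (−0.0024) and from −0.0246 to 0.0419 with 1 left out; and Ptpro from −0.0038 to 0.0802 with 1 left out. In the triple comparison they were Ptpro with RLE factors (0.0008), DESeq2 (0.0009) and library totals (0.0244), and from −0.0474 to 0.0497 with 1 left out; Tcf21 with library totals (0.0159) and from −0.0672 to 0.0234; and Wt1 from −0.0193 to 0.0526. The cause was not tested.

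Counts over all genes moved more. In the Dmrt2 comparison 88 genes were called, against 676 with no filter, 429 with DESeq2, 13 with the Y-linked term and 26 to 195 with 1 library left out. In the Hmx3 Hmx2 comparison 4 were called, against 2 with replicates 1 to 3 only and 2 with replicates 4 to 6 only. In the triple comparison 222 were called, against 1510 with no filter, 1085 with DESeq2, 573 in the fit of 24 libraries and 20 to 438 with 1 library left out. Same-numbered libraries correlated at 0.093 to 0.197, −0.111 to 0.372 and −0.469 to −0.121 in the 3 lines, and 5 of 6, 7 of 12 and 0 of 6 correlated best with their own number. With a replicate block the counts were 80, 5 and 51, and 0 of 7 members were called in each. Of the 21 pairs, 5 in place of 6 passed with library totals. The Dmrt2 and triple comparisons rest on 3 libraries a group, which limits the changes that could pass.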
